A study of Mus musculus with 18 samples.

Results

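E8 cells are female mouse embryonic stem (ES) cells from a cross of the laboratory strain BL6 with *Mus castaneus* (*cast*). They carry a BL6 and a *cast* set of autosomes, as the cross is described, and the copies of a gene can be read apart where their sequences differ. The 4 E8 wt libraries, 2 labelled D7 and 2 labelled D15 of undirected differentiation, were used out of 18 libraries in the series. They carry no *Kdm6a* edit. In the study's methods, cells grew as embryoid bodies without leukemia inhibitory factor until D7. They were then attached to gelatin-coated plates until D15. The study's methods describe E8 libraries of earlier days than the labels do, and the days are given here as labelled. The 4 E8 *Kdm6a* KO libraries of the same days, from the same line after CRISPR/Cas9 deletion of the *Kdm6a* promoter in 1 clone, and the 4 wt libraries of *Tsix*-stop ES cells (a hybrid of *cast* with a laboratory line of strain-129 type, with a transcriptional stop in *Tsix* on the non-*cast* X chromosome, D0 and D15) were used only for comparison. The labels do not say whether replicates were separate cultures, so p-values measure the spread between these libraries, which may be technical. All libraries of a line come from 1 cross, so an effect of strain, an effect of the parent that gave the allele and an effect of read assignment cannot be told apart here. The BL6 share is the share of signal assigned to the reference allele, and the genotype of the non-*cast* copy of E8 was not checked.

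Genes were chosen within the E8 wt libraries. A gene needed a diploid level of at least 5 TPM (library-scaled transcript abundance) in each library, which 9736 genes met, 9359 of them on autosomes. The *cast* TPM of each library was multiplied by a constant that brought the median autosomal gene to equality between alleles, and the BL6 share is BL6 TPM as a percentage of BL6 plus scaled *cast* TPM. Of the 9359 autosomal genes, 672 had less than 1 TPM of allelic signal in at least 1 library and 8687 were tested. A gene was called at a mean ratio of at least 2-fold and a false discovery rate (FDR) of at most 0.1 in limma, called strain-biased when its BL6 share was also at least 66.7% or at most 33.3% in all 4 libraries, and monoallelic when the share was at least 95% or at most 5% in all 4. These thresholds chose the genes, so BL6 shares in E8 wt are given as a description, without p-values.

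In a first-generation hybrid both copies of a gene sit in the same nucleus and share all diffusible regulators, so a lasting difference between them is attributed in general to sequence or chromatin carried by the copy itself. Imprinted genes are a special class, in which the copy from the mother or from the father is silenced by DNA methylation set in the germline. RNA-seq sees such differences only through reads that cover a single nucleotide polymorphism (SNP), and genes with near-identical copies elsewhere in the genome are the hardest to assign.

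The members with the highest levels were both annotated microRNA genes, *Mir703* and *Mir682*. Their rows held 69.7%, 73.9%, 71.6% and 71.0% of the whole BL6 column in the D7 replicates 1 and 2 and the D15 replicates 1 and 2, and none of the *cast* column, where both were listed at 0. Before the scaling described above, the *cast* share of the median autosomal gene was between 80.6% and 82.5%. Mature sequences from RefSeq (GRCm38.p6), with the seed (bases 2 to 8) in capitals, are shown because these rows hold most of the BL6 column.
Mir703: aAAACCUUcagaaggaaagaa
Mir682: cUGCAGUCacagugaagucug
Their seeds differ, and of the 31-base words of the annotated transcripts 50.6% for *Mir703* and 77.3% for *Mir682* also occur in a transcript on another chromosome. The libraries were made from polyadenylated RNA, so these rows are not a measure of the mature microRNA.

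The values are TPM, but low values fall on steps of 1 read, and whole SNP reads could be recovered for 8646 of 11955 genes tried (72.3%, within 0.03 reads). Recovered SNP reads numbered 4077264, 3768649, 2888432 and 4668402 in the E8 wt libraries, and by these reads the median gene had a BL6 share of 48.0% to 48.2%. Replicate libraries differed by more than sampling noise, with a chi-square per degree of freedom of 1.56 at D7 and 1.60 at D15. *Kdm6a* was at 46.7 to 47.8 TPM in E8 wt and at most 0.0319 TPM in E8 KO. BL6 shares repeated closely, with a median SD of 2.48 percentage points over the 4 libraries.

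The labels give both days as nondirected differentiation of ES cells, and the marker genes were checked against that. All 8 pluripotency markers were above 5 TPM in every E8 wt library, and their summed level was 13042 and 13165 TPM at D7 and 16695 and 17465 TPM at D15. *Pou5f1*, the core pluripotency factor, was at 1729, 1625, 1865 and 2044 TPM, and *Nanog*, a naive pluripotency factor, at 675, 680, 638 and 667 TPM. The 8 visceral endoderm markers summed to 7.36 to 14.6 TPM with none at 5 TPM in every library, and *Col1a1* and *Col3a1*, collagen genes of fibroblasts, were at most 0.622 and 0.399 TPM. *Myl7*, with 8.35 to 20.6 TPM, was the only one of the 8 cardiac muscle markers at 5 TPM in all 4. Of the 8 fibroblast and mesenchyme markers *Thy1* alone reached 5 TPM in every library, as did *Tubb3* and *Ncam1* of the 8 neural and *Pecam1* of the 8 blood and endothelium markers, 3 lists that summed to 22.2 to 34.8, 42.4 to 57.1 and 77.7 to 110 TPM. *Hbb-bh1* and *Emcn* were listed at 0. The E8 wt libraries labelled D7 and D15 thus had the markers of ES cells and few of those of the derivatives searched for, and they are named by their labels. In bulk RNA fewer cells of a type and less RNA per cell cannot be told apart. In E8 KO the 8 visceral endoderm markers summed to 1178 and 1177 TPM at D7 and to 250 and 249 TPM at D15, so the KO libraries differ from wt in cell type markers as well as in genotype.

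More genes were biased toward *cast* than toward BL6. Over all chromosomes 2178 of 9019 genes tested were called (24.1%), 725 with BL6 higher (8.04%) and 1453 with *cast* higher (16.1%). With each gene scaled to its 20 neighbours, a setting chosen after seeing the data, the calls were 841 and 1074, with 674 BL6-biased and 923 *cast*-biased autosomal genes. On autosomes 608 genes were BL6-biased and 1281 were *cast*-biased in all 4 libraries, and 114 and 244 of these were monoallelic. Over all chromosomes these classes held 7.13% and 14.4% of the genes tested, and the monoallelic ones 1.39% and 2.75%. Most genes were near balance, with 5056 of 8687 (58.2%) at a mean BL6 share between 40% and 60%. At the threshold, *Aplp1* was the BL6-biased gene with the lowest share in any library (66.69%) and *Hspe1* fell just outside (66.59%), while on the other side *Smagp* (highest share 33.31%) was inside and *Aimp2* (33.34%) outside.

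**Figure D1:**
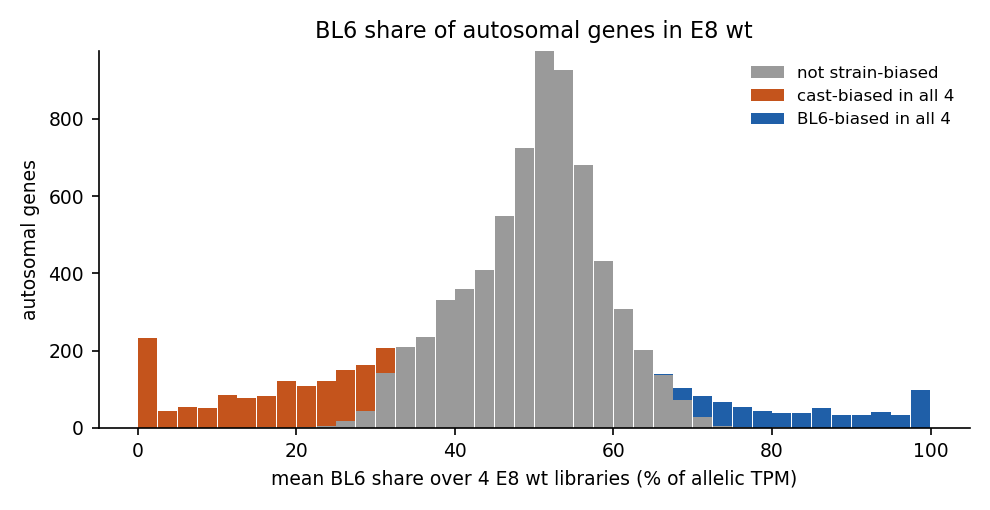
Number of autosomal genes (y axis) by mean BL6 share over the 4 E8 wt libraries (x axis, percent, bins of 2.5). The bulk of the 8687 genes lies around 50%, with separate piles at both ends, where the 244 *cast*-monoallelic and 114 BL6-monoallelic genes lie.

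Among the 10 protein-coding genes with the largest BL6 excess, the first was *Ftl1* (chr7:45457944-45459884), which encodes the light chain of the iron store ferritin. It had 31652, 27381, 38213 and 60131 BL6 reads in the 4 libraries, against 5, 5, 3 and 5 *cast* reads. All 4 libraries were at the BL6 end, with a mean share of 99.99%. *Ranbp1* (chr16:18239784-18248732), a regulator of the nuclear transport GTPase Ran, had 2308, 2295, 1587 and 2553 BL6 reads against 0, 0, 0 and 2 *cast* reads. The other genes were *Rpl36al* and *Slirp* on chromosome 12, *Eno1b* on chromosome 18, *Ubb* on chromosome 11, *Ptbp1* and *Nap1l1* on chromosome 10, *Tuba1b* on chromosome 15 and *Rps2* on chromosome 17, all with a mean share of 99.86% or more. Their products include ubiquitin (*Ubb*), a glycolytic enolase (*Eno1b*), alpha tubulin (*Tuba1b*), a splicing regulator (*Ptbp1*), a histone chaperone (*Nap1l1*) and proteins of the ribosome (*Rps2*).

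BL6-monoallelic genes often had near-identical copies elsewhere. Of the 112 such genes with an annotated transcript sequence, 45 (40.2%) shared at least 20% of their 31-base words with an annotated transcript on another chromosome, against 245 of all 8672 autosomal genes (2.83%) and 13 of 244 *cast*-monoallelic genes (5.33%). The shared percentage was 88.6% for *Eno1b*, 65.4% for *Tuba1b*, 54.5% for *Ftl1*, 50.3% for *Ubb*, 43.4% for *Rps2* and 24.6% for *Nap1l1*, so the allelic values of these genes are uncertain. It was 18.8% for *Rpl36al*, 11.5% for *Ptbp1*, 4.53% for *Ranbp1* and 0% for *Slirp*. Of the 114 genes 95 were annotated as protein coding (83.3%), and the others included pseudogenes such as *Gm6083*, *Gm6251* and the ribosomal protein copy *Rps4l*.

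Among the protein-coding genes with the largest *cast* excess were *Cox7c*, *Sdhb*, *Cyb5a*, *Dynlrb1*, *Cox6c*, *Srp14*, *Ndufb10*, *Snrpe* and *Srsf2*. *Sdhb* (chr4:140961203-140979193), the iron-sulfur subunit of succinate dehydrogenase, had 0, 0, 0 and 1 BL6 reads beside 1353, 1156, 1041 and 1587 *cast* reads. *Srsf2*, a splicing factor, had 12 BL6 and 7171 *cast* reads over the 4 libraries. Every library was thus at the *cast* end for both genes. *Cox7c*, *Cox6c* and *Ndufb10* encode small subunits of the respiratory chain, *Srp14* a subunit of the signal recognition particle, *Snrpe* a core protein of spliceosomal RNPs, *Dynlrb1* a dynein light chain and *Cyb5a* cytochrome b5. Of these 9 genes, *Cox7c* and *Snrpe* shared more than 10% of their 31-base words with another chromosome (24.5% and 13.8%), and the other 7 shared at most 5.51%. Limits given for a count of 0 reflect counting error alone, because PCR duplicates were not marked by molecular identifiers.

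The reads behind the extremes were many. For 82 of the 114 BL6-monoallelic genes reads could be recovered, with a median of 1527.5 BL6 reads over the 4 libraries, and 17 of the 82 had no *cast* read. For 171 of the 244 *cast*-monoallelic genes the median was 680 *cast* reads, and 83 of the 171 had no BL6 read. The allelic levels were also set against the diploid level, as median ratios of TPM. Over all 8687 genes BL6 TPM was 0.264 and scaled *cast* TPM 0.293 of diploid TPM. BL6-monoallelic genes had 0.994 on BL6 and 0.00177 on *cast*, and *cast*-monoallelic genes had 0.000175 on BL6 and 0.330 on *cast*. The *cast* signal of *cast*-monoallelic genes was close to that of a typical gene, and the BL6 signal was missing. The BL6 signal of BL6-monoallelic genes was above that of a typical gene. Over all 1281 *cast*-biased genes the ratios were 0.0870 on BL6 and 0.438 on *cast*. For the 608 BL6-biased genes they were 0.680 on BL6 and 0.113 on *cast*. In both of these wider classes the higher allele was above a typical gene and the lower allele below it. All these classes were chosen on the ratio of the same allelic values. A gap between the alleles was thus given by the choice, and the levels are only a description.

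Whole chromosomes were balanced in E8 wt with 1 exception. The median BL6 share of 18 autosomes was between 45.7% and 53.6% in the 4 libraries, and that of chromosome 12 was between 38.5% and 39.5%. Chromosome 5 beyond 130 Mb stood at 36.9% to 37.3%, and the rest of chromosome 5 at 49.5% to 50.5%. In E8 KO chromosome 12 was at 66.2% to 67.2%, the distal part of chromosome 5 at 51.0% to 51.6% and chromosome 19 at 36.8% to 37.7%, against 50.5% to 51.5% for chromosome 19 in wt. The X chromosome was at 52.9% to 53.9% in wt and 99.9% or more in KO. Of the genes on chromosome 12, 85 of 350 (24.3%) were *cast*-biased, against 14.7% of all autosomal genes. The share was high also on chromosomes 8 (27.6%), 14 (24.4%) and 17 (19.5%) and low on chromosomes 16 (3.69%), 10 (4.55%) and 19 (6.11%). BL6-biased genes made up 3.74% (chromosome 15) to 10.4% (chromosomes 3 and 13) of an autosome.

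**Figure D2:**
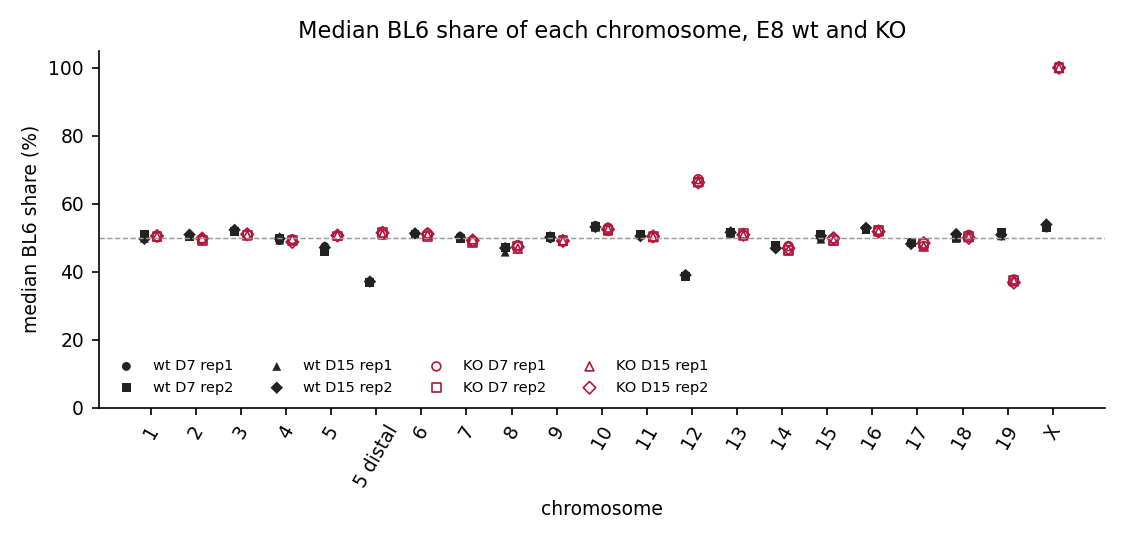
Median BL6 share (y axis, percent) of the genes tested on each chromosome (x axis), with the part of chromosome 5 beyond 130 Mb shown apart. Filled points are the 4 E8 wt libraries and open points the 4 E8 KO libraries: wt departs from 50% on chromosome 12 and distal chromosome 5, and KO on chromosomes 12, 19 and X.

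Genes biased to *cast* also lay side by side. For each gene the median BL6 share of its 10 tested neighbours on each side was taken, and 8 runs of at least 10 genes had a neighbour median of at most 25%. They held 179 genes (2.06% of the 8687) over 31.2 Mb on 7 chromosomes, and 140 of these genes were *cast*-biased, 3 were BL6-biased and 43 were *cast*-monoallelic. That is 10.9% of all *cast*-biased genes, 0.493% of the BL6-biased and 17.6% of the *cast*-monoallelic. No run lay on the BL6 side, where the highest neighbour median was 65.2%. This rule was set after the shares were seen.

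The longest run had 50 genes (chr2:118475850-121506665), 46 of them *cast*-biased and 22 *cast*-monoallelic. It begins at *Srp14* and had a median BL6 share of 5.43% in wt and 5.65% in KO. Its edges are set by the rule on neighbours, and low shares reached past them: *Eif2ak4*, just before the run, was at 4.68% and *Wdr76*, just after it, at 0.309%. The others were on chromosome 17 (chr17:24175431-25187662, 35 genes), chromosome 7 (chr7:16400910-19577595, 28 genes), chromosome 12 (chr12:21285391-31634658, 24 genes), chromosome 8 (chr8:34090420-40551134, 11 genes), chromosome 14 (chr14:7817957-14356011, 11 genes, and chr14:54235479-54577558, 10 genes) and chromosome 9 (chr9:106194947-106485424, 10 genes). Over all 8 runs the median BL6 share was 16.3% in E8 wt and 16.3% in E8 KO. The same genes had a median non-*cast* share of 47.9% in *Tsix*-stop wt, where 156 of the 179 were measured, against 49.9% for all other genes. Whether the non-*cast* copy of E8 has the BL6 reference sequence in these runs was not tested, and the BL6 share there rests on that. The run on chromosome 12 had medians of 20.2% in wt, 40.1% in KO and 34.6% in *Tsix*-stop. The chromosome as a whole had medians of 38.5% to 39.5%, 66.2% to 67.2% and 36.8%. Against its chromosome this run was thus low in wt and in KO, and near it in *Tsix*-stop.

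**Figure D3:**
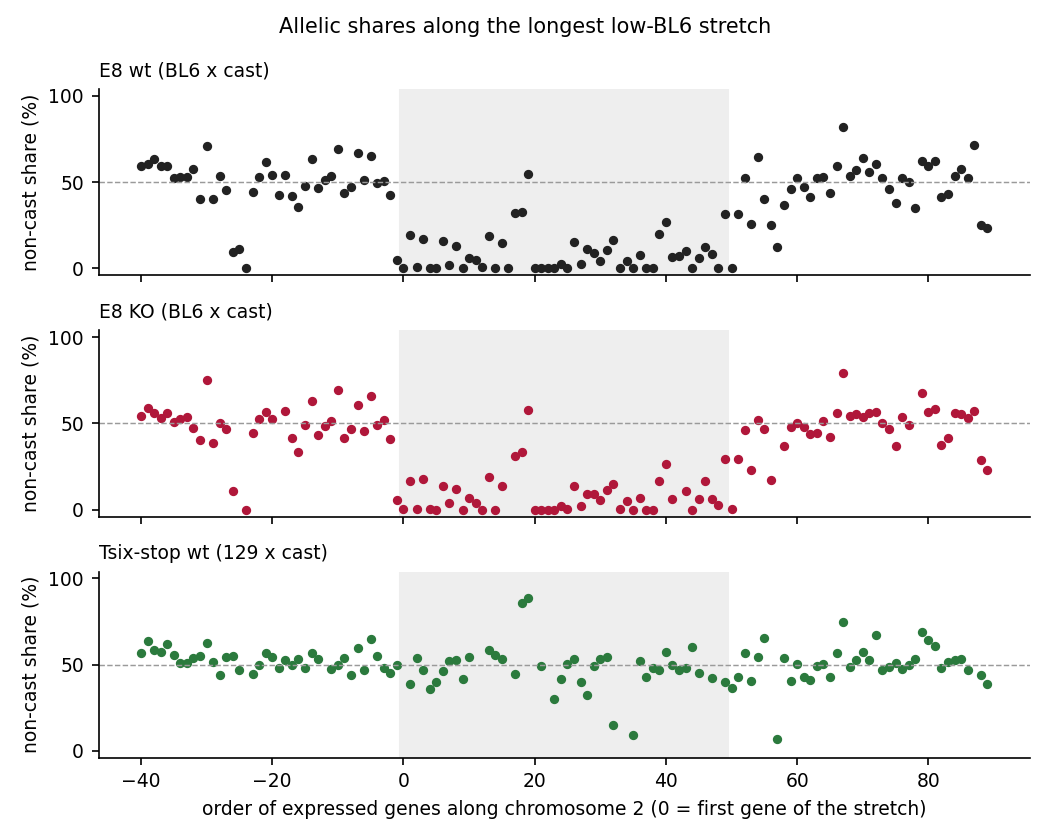
Non-*cast* share (y axis, percent) of consecutive expressed genes along chromosome 2 (x axis, gene order), in E8 wt, E8 KO and *Tsix*-stop wt, each point being the mean of 4 libraries. The shaded 50 genes have a median of 5.43% in E8 wt, 5.65% in E8 KO and 47.9% in *Tsix*-stop wt.

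Outside the runs, chromosome 12 and distal chromosome 5, 8014 genes were tested, of which 575 were BL6-biased and 1040 *cast*-biased, with 102 and 198 monoallelic.

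The KO libraries come from the same line and were not used to choose the genes. Of the 571 BL6-biased genes measured there, 496 (86.9%) were called with BL6 higher and none with *cast* higher. Of the 1208 *cast*-biased genes measured, 1082 (89.6%) were called with *cast* higher and 1 with BL6 higher. Among the 8280 autosomal genes tested in wt and measured in KO, 695 (8.39%) were called with BL6 higher and 1308 (15.8%) with *cast* higher. All 111 BL6-monoallelic and all 231 *cast*-monoallelic genes measured in KO were called on the same side.

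The *Tsix*-stop libraries share the *cast* strain but have another laboratory strain in place of BL6, and their SNP reads were tested with edgeR. There the sides parted. Among the 8291 autosomal genes measured in both lines, 521 (6.28%) were called with the non-*cast* allele higher and 369 (4.45%) with *cast* higher. Over all 10667 genes tested, those on X included, these shares were 7.41% and 6.31%. Of 536 BL6-biased genes measured, 320 (59.7%) were called with the non-*cast* allele higher and 19 with *cast* higher. Of 1137 *cast*-biased genes, 168 (14.8%) were called with *cast* higher and 15 with the non-*cast* allele higher. Their median non-*cast* share was 46.1%, and that of BL6-biased genes was 71.0%. The *cast*-monoallelic genes were nearly balanced in *Tsix*-stop, with a median non-*cast* share of 47.1% over 145 genes, and 15 of them were called with *cast* higher. For BL6-monoallelic genes the median was 97.8% over 83 genes, and 66 were called with the non-*cast* allele higher. Of the *cast*-biased genes outside the runs, chromosome 12 and distal chromosome 5, 115 of 921 (12.5%) were called with *cast* higher. The lines differ in strain and days and may differ in sequencing depth. All genes together had 9605107 to 12095544 SNP reads per *Tsix*-stop library, while the E8 reads given above cover only the genes recovered. BL6-biased genes also had copies on other chromosomes more often than *cast*-biased genes. The part of each of these in the difference between the sides was not tested.

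**Figure D4:**
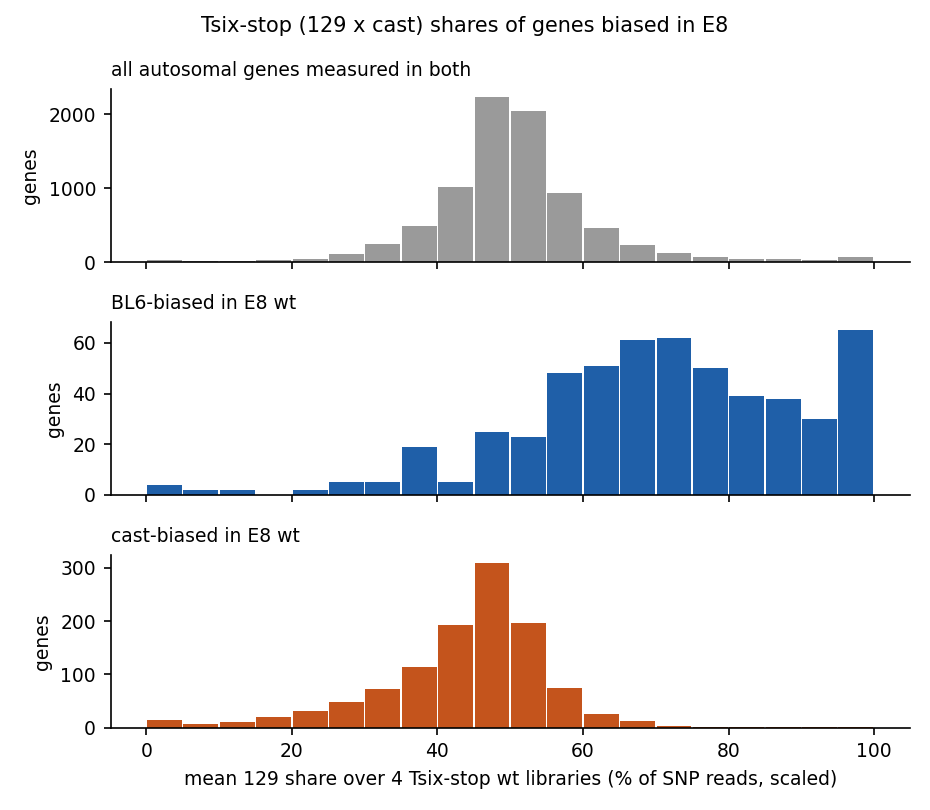
Number of genes (y axis) by mean non-*cast* share over the 4 *Tsix*-stop wt libraries (x axis, percent) for all autosomal genes measured in both lines, for BL6-biased genes of E8 wt and for *cast*-biased genes of E8 wt. BL6-biased genes have a median of 71.0% and *cast*-biased genes one of 46.1%.

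Single genes showed both patterns. *Sdhb* had a non-*cast* share of 49.8% to 54.7% in the 4 *Tsix*-stop wt libraries, *Srsf2* 46.9% to 58.5% and the zinc finger gene *Zfp961* 48.1% to 51.7%, although each was monoallelic in E8. *Nap1l1*, also monoallelic in E8, was at 59.5% to 62.6%, but it shared 24.6% of its 31-base words with other chromosomes. *Iars2* (chr1:185284726-185329396), the mitochondrial isoleucyl-tRNA synthetase, was *cast*-monoallelic in both lines. It had 6, 2, 1 and 5 BL6 reads beside 1840, 1788, 1246 and 1961 *cast* reads in E8 wt, and its non-*cast* share in *Tsix*-stop was 0% to 0.993%. *Nfatc3*, a calcium-responsive transcription factor, was BL6-monoallelic, with 2327, 2265, 1824 and 2742 BL6 reads and 7, 2, 1 and 1 *cast* reads, and its non-*cast* share was 99.90% or more.

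Genes with few copies on other chromosomes and with balanced neighbours were then looked at. Protein-coding genes of at least 10 TPM were taken that shared under 5% of their 31-base words with another chromosome. They also had a neighbour median of at least 45% and lay outside the runs and shifted chromosomes. Copies on the same chromosome were not counted, so these genes may still have some. This choice was made after values were seen. It left 229 BL6-biased and 408 *cast*-biased genes, of which 214 and 366 were measured in *Tsix*-stop. The share passed the same limit in all 4 *Tsix*-stop wt libraries for 106 of the BL6-biased and 30 of the *cast*-biased genes. Of all genes tested in *Tsix*-stop, those on X included, 4.4% and 3.0% did. On the BL6 side these included *Fth1*, the ferritin heavy chain, at 99.7% to 99.9% BL6 in E8 wt, *Phf5a*, a splicing factor subunit, *Mrpl36*, a mitochondrial ribosomal protein, and *Usp48*, a deubiquitinase. *Usp48* had 4126, 3719, 3897 and 6308 BL6 reads beside 64, 68, 95 and 133 *cast* reads, a mean share of 98.2% ± 0.340 (SD, n = 4), and a non-*cast* share of 97.5% to 98.1%. On the *cast* side they included *Fkbp1a*, the binding protein of the drug FK506, with BL6 shares of 4.79%, 5.10%, 6.15% and 6.05%. *Prdm14*, a repressor of differentiation in naive ES cells, had 132, 142, 107 and 183 BL6 reads beside 976, 882, 765 and 1391 *cast* reads. Its BL6 share was 13.2% ± 1.03 (SD, n = 4) and its non-*cast* share 18.7% to 23.2%, so both laboratory alleles were below *cast* in every library. *Pttg1* (securin), the inhibitor of separase, had a BL6 share of 13.9% to 16.2% in wt and 26.3% to 28.3% in KO without overlap (log2 ratio higher in KO by 1.15, SE 0.07, limma adjusted p 2.9e-06).

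A small group switched sides between the lines: 19 BL6-biased genes were called with *cast* higher in *Tsix*-stop and 15 *cast*-biased genes with the non-*cast* allele higher. *Mif*, a cytokine, had a BL6 share of 97.0% in E8 wt and a non-*cast* share of 1.18%, and *Ybx1*, an RNA-binding protein, 97.3% and 1.08%. *Hnrnpl*, a splicing regulator, had 5.29% and 92.4%, and *Rplp0*, a protein of the ribosomal stalk, 1.30% and 89.9%. *Mif*, *Ybx1* and *Rplp0* shared 39.1%, 25.9% and 42.8% of their 31-base words with other chromosomes, and *Hnrnpl* 2.21%. *Nanog* was in this group as well.

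Of the 8 pluripotency genes, 1 was BL6-biased and 1 *cast*-biased, 12.5% of the list each, beside 7.13% and 14.4% over all genes tested. The median BL6 share of the list was 44.3%, beside 50.1% over all autosomal genes. *Nanog* (chr6:122707489-122714633) had BL6 shares of 79.2%, 78.2%, 80.0% and 79.7% in E8 wt and 77.2% to 79.1% in E8 KO. In *Tsix*-stop wt its non-*cast* share was 22.7% to 31.6% (edgeR log2 ratio of the non-*cast* to the *cast* allele -1.47, adjusted p 0.0004). *Nanog* has processed copies, and 10.4% of its 31-base words occur on another chromosome. *Klf4* (chr4:55527143-55532466), a zinc finger activator of the naive state, had 345, 330, 299 and 562 BL6 reads beside 1739, 1561, 1533 and 2580 *cast* reads, a BL6 share of 18.1% ± 0.807 (SD, n = 4). It was at 18.2% to 19.96% in KO and at 39.3% to 41.7% non-*cast* in *Tsix*-stop. The libraries of the lines do not overlap for either gene. The RefSeq promoters (GRCm38.p6) of this pair are shown because the genes belong to the same regulatory circuit and lie on opposite sides. The reference sequence is that of BL6, and the *cast* sequence was not used here. Capitals mark TTTGCAT, an octamer-like motif (with its complement ATGCAAA in 4.63% of 32851 promoters of this length), in *Nanog* and CCGCCC or GGGCGG, the GC box, in *Klf4* (35.7% of promoters), where 2 of the 4 matches overlap.
Nanog, chr6:122707239-122707538, plus strand: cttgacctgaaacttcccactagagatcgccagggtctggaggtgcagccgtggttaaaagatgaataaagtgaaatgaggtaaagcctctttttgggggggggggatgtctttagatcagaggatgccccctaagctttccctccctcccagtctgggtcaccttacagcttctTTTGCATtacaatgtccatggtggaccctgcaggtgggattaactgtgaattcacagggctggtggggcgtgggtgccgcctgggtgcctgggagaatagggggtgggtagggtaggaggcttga
Klf4, chr4:55532426-55532725, minus strand: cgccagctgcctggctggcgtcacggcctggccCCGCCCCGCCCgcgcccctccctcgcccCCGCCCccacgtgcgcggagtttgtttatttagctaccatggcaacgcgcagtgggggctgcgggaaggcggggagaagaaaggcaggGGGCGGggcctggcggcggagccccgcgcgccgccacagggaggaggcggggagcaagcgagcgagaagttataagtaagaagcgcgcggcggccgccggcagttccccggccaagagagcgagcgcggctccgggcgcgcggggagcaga

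Genes of the major histocompatibility complex, whose class I molecules present peptides at the cell surface and differ widely between strains, were tested for 8 members. Of these 4 were BL6-biased and none *cast*-biased, beside 7.13% and 14.4% over all genes tested, and 1 more gene was called with *cast* higher at a share of 27.5%. The median BL6 share of the 8 genes was 82.2%. *H2-K1* (chr17:33996017-34000347) had 1905, 1685, 1059 and 1604 BL6 reads and no *cast* read, which allows a *cast* share of up to 0.048% over the 4 libraries. *H2-D1* had 652, 588, 462 and 737 BL6 reads and 0, 0, 1 and 0 *cast* reads, and *H2-Q4* had BL6 shares of 95.8% to 98.0%. *H2-K1* was also at 100% non-*cast* in all 4 *Tsix*-stop libraries.

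Of 15 interferon-induced and innate immune genes, 4 were BL6-biased (26.7%) and 2 *cast*-biased (13.3%), beside 7.13% and 14.4% over all genes tested. *Ifitm2*, which restricts virus entry, had BL6 shares of 91.5%, 91.0%, 90.8% and 90.7%, and its neighbour *Ifitm3* 73.2%, 73.8%, 72.3% and 74.2%. In *Tsix*-stop both were near balance, at 50.7% to 55.8% and 54.7% to 57.5%. Of the antiviral oligoadenylate synthetases, *Oas1a* was BL6-biased (76.3% to 84.8%) and *Oas1d* *cast*-biased (16.3% to 23.1%), and their non-*cast* shares of 85.0% to 86.3% and 6.50% to 13.5% lay on the same sides. *Ifitm2* and *Ifitm3* shared 37.0% and 19.3% of their 31-base words with other chromosomes.

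Of 14 detoxifying glutathione S-transferases, 4 were BL6-biased and 4 *cast*-biased (28.6% each, beside 7.13% and 14.4% over all genes tested). *Gsto1* had BL6 shares of 9.31% to 13.8%, *Gstm2* of 13.1% to 25.5% and *Gstm3*, a neighbour of *Gstm2*, of 83.2% to 89.9%. *Gstm3* shared 31.1% of its 31-base words with other chromosomes and *Gstm2* 5.77%, and copies on the same chromosome were not counted. The allelic value of *Gstm3* is thus uncertain. For *Mgst1* only 62 *cast* reads were behind the monoallelic value, which allows a BL6 share of up to 4.84%. Of 5 serine protease inhibitors (Serpin) 3 were *cast*-biased, where 14.7% of all autosomal genes were, and none BL6-biased: *Serpina3m* at 1.33% to 5.45%, *Serpinh1*, the collagen chaperone, at 7.34% to 11.6%, and *Serpinb6c* at 9.02% to 18.1%. In E8 KO *Serpinh1* was at 13.7% to 15.2%, and *Serpinb6c* at 36.5% and 37.7% at D7 and 11.6% and 11.8% at D15. *Serpina3m*, on chromosome 12, did not pass the filters in KO, where its shares were 19.6% to 78.1%. Of 26 Trim genes, a family of ubiquitin ligases, 2 were BL6-biased (7.69%) and 5 *cast*-biased (19.2%), near the 7.13% and 14.4% of all genes tested, with *Trim12c* at 91.6% to 95.9% and *Trim3* at 2.23% to 3.30%.

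Of 192 zinc finger (Zfp) genes 11 were BL6-biased (5.73%) and 32 *cast*-biased (16.7%), near the 7.13% and 14.4% over all genes tested, with a median share of 49.4%. *Zfp961* had 9, 12, 10 and 15 BL6 reads beside 872, 798, 660 and 1064 *cast* reads, and *Zfp459* had no BL6 read beside 1051 *cast* reads, which allows up to 0.285%. *Zfp459* and *Zfp729a*, at 3.02% to 4.17%, lie in the same part of chromosome 13 (chr13:67405709-67421418 and chr13:67612763-67637791), and *Zfp534* was at 91.3% to 93.2% but shared 67.9% of its 31-base words. Cytosolic ribosomal protein genes held 16 BL6-biased (34.0%) and 8 *cast*-biased (17.0%) of 47, beside 7.13% and 14.4% over all genes tested, with 6 and 4 monoallelic and a median share of 55.5%. Ribosomal protein genes have many processed copies, and 47 of the 78 that reached 5 TPM could be tested. Of 266 predicted or unnamed (Gm and Rik) genes 51 were BL6-biased (19.2%) and 37 *cast*-biased (13.9%, near the 14.7% of all autosomal genes), and no mitochondrially encoded gene was listed.

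Imprinted genes were mostly expressed from both alleles. Of 14 maternally expressed genes tested, 3 were BL6-biased and 3 *cast*-biased (21.4% each). Of 15 paternally expressed genes none was BL6-biased and 2 were *cast*-biased (13.3%), beside 7.13% and 14.4% over all genes tested. No gene of either list was monoallelic in all 4 libraries. *H19*, a maternally expressed non-coding RNA, had 1004, 972, 462 and 748 BL6 reads beside 871, 785, 426 and 651 *cast* reads, a BL6 share of 53.8% to 57.0%. The paternally expressed genes *Mest* (45.1% to 53.2%), *Slc38a4* (48.9% to 49.8%), *Snurf* (49.9% to 53.9%) and *Peg3* (41.4% to 43.8%) and the maternally expressed *Igf2r* (51.6% to 56.7%) were close to balance as well. *Commd1*, a copper transport regulator with maternal preference in some tissues, was the nearest to monoallelic, with BL6 shares of 95.6%, 96.9%, 94.9% and 94.3%, and was at 98.97% to 99.9% non-*cast* in *Tsix*-stop. *Zrsr1*, the paternally expressed gene inside *Commd1*, was at 44.7% to 52.5%.

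The 3 *cast*-biased maternally expressed genes, *Meg3* (22.1% to 27.1%), *Rian* (26.1% to 31.3%) and *Mirg* (20.05% to 24.0%), are neighbouring non-coding RNAs on chromosome 12, whose median was itself low in wt. They stayed low in KO (15.2% to 23.4%, 23.5% to 26.9% and 18.9% to 21.9%), where the chromosome's median was 66.2% to 67.2%. *Phlda2* (69.4% to 86.6%) and *Blcap* (74.5% to 88.0%) were the other BL6-biased genes, and *Inpp5f* (14.5% to 17.9%) and *Sgce* (18.7% to 33.2%) the *cast*-biased of the paternal list. *Inpp5f* was at 45.6% to 50.8% non-*cast* in *Tsix*-stop. *Snrpn* was called but not biased in every library (65.6% to 73.0%). *Nnt*, a mitochondrial transhydrogenase known for a deletion allele in some BL6 stocks, had BL6 shares of 35.5%, 36.4%, 38.8% and 34.1% (log2 ratio -0.78) and non-*cast* shares of 35.0% to 41.9%, so it was not called.

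**Figure D5:**
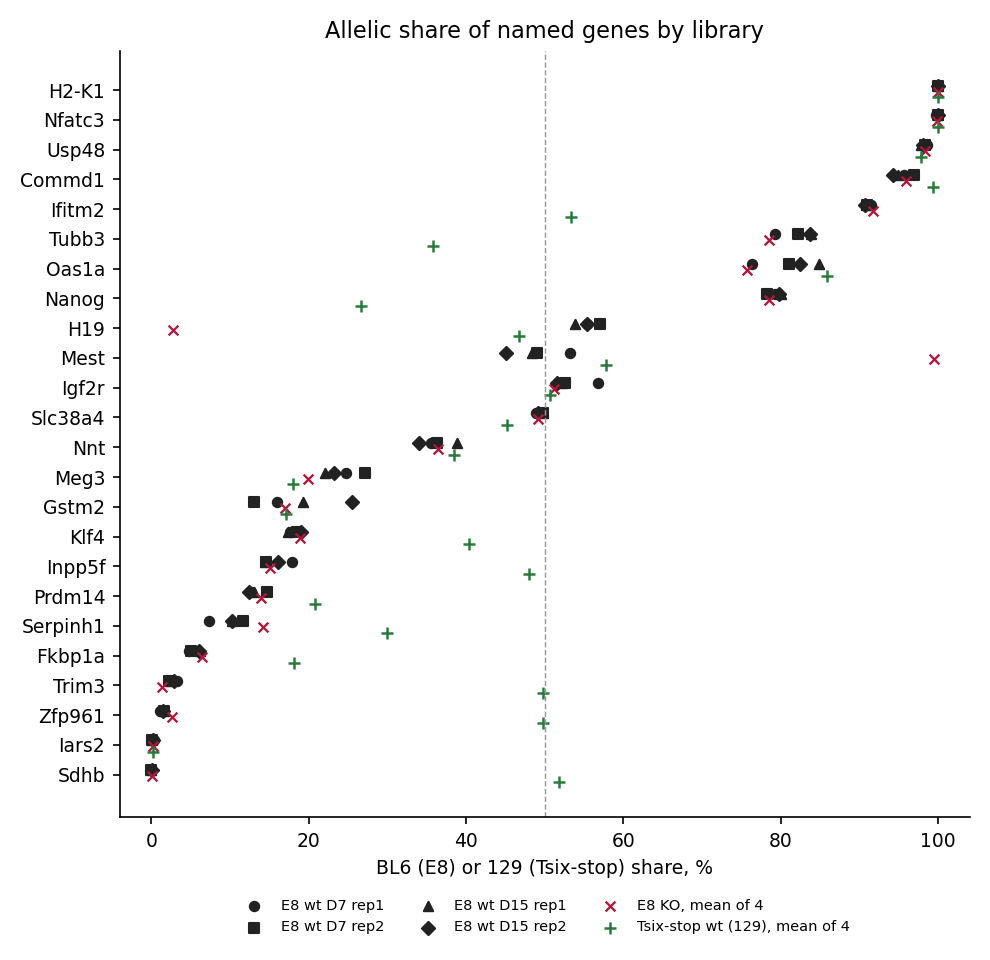
BL6 share (x axis, percent) of 24 named genes (y axis). Black symbols are the 4 E8 wt libraries and crosses the mean of 4 E8 KO libraries. Plus signs are the mean non-*cast* share of 4 *Tsix*-stop wt libraries. The E8 wt libraries of a gene sit close together, and *H19* and *Mest* leave the wt values in KO. Genes that differ between the lines include *Nanog*, *Tubb3*, *Zfp961*, *Sdhb*, *Trim3*, *Ifitm2*, *Inpp5f*, *Klf4* and *Serpinh1*.

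Between D15 and D7 the allelic ratio was called for 2 of 9019 genes in E8 wt (0.0222%) by limma, 1 in each direction (0.0111% each), and for 1 to 9 genes in the alternatives run. They were *Rpl36al*, with no *cast* read at D7 and 1 and 2 *cast* reads at D15 (limma adjusted p 0.099), and the small nucleolar RNA *AF357399*, with BL6 shares of 44.6% and 28.7% at D7 and 100% in both D15 libraries. In libraries of polyadenylated RNA the row of *AF357399*, like the microRNA rows above, is not a measure of the mature small RNA. The difference between KO and wt was called for 637 of 8568 genes (7.43%), with a higher BL6 share in KO for 6.27% and a lower one for 1.17%. It was called for 226 of 275 genes tested on X, 275 of 339 on chromosome 12, 72 of 304 on chromosome 19, 14 of 153 on distal chromosome 5 and 47 of 7484 on the other autosomes. Among strain-biased genes, all autosomal, it was called for 26 of 571 (4.55%) BL6-biased and 74 of 1208 (6.13%) *cast*-biased. These shares are near the 408 of 8280 (4.93%) called over all autosomal genes. Both *H19* and *Mest*, balanced in wt, were called there. *H19* fell to 1.64% to 3.80% BL6 in KO (log2 difference -5.53, SE 0.18, limma adjusted p 3.6e-08) and *Mest* was at 98.97% to 100% (log2 difference 5.37, SE 0.19, limma adjusted p 6.3e-08). *Nudt12*, a NADH pyrophosphatase, went from 27.5% to 32.6% in wt to 0% to 1.80% in KO.

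Strain-biased genes were mostly protein coding, as were all genes tested: 569 of 608 BL6-biased (93.6%), 1260 of 1281 *cast*-biased (98.4%) and 8541 of 8687 in all (98.3%). BL6-biased genes had shorter exon unions (median 3479.5 bases, and 2669 for the monoallelic) than all genes (4521), and *cast*-biased genes were in between (4108). Median diploid levels were 38.8, 31.6 and 28.4 TPM for BL6-biased, *cast*-biased and all genes. RefSeq promoters were at hand for 77.1% of BL6-biased, 77.0% of *cast*-biased and 79.9% of all genes, fewer than 80% in each case, so the comparison of CpG content and of TATAAA between these groups is void and is not given.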

How the data were processed

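Polyadenylated RNA was sequenced from the 4 E8 wt libraries, with 4 E8 KO and 4 *Tsix*-stop wt libraries for comparison, and 6 other libraries of the series were not used. According to the submitters' processing notes Bowtie2 (2.4.5), TopHat2 (2.1.1) and mm10 were used, and strandedness and the gene annotation are not given in the sources used here. The E8 values deposited by the authors are TPM, with columns taken as the diploid, BL6 and *cast* level from their names and values, and every column was scaled to the same total, so *cast* was rescaled by 0.212 to 0.240 in E8 wt. The *Tsix*-stop values deposited by the authors are expected counts, which were rounded to whole numbers. Where a symbol was given more than once its rows were summed.

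Ratios on the log2(TPM + 0.5) scale were tested against equal alleles with limma 3.58.1 (R 4.3.3) and Benjamini-Hochberg adjustment over all genes with at least 1 allelic TPM in every library. The pseudocount understates the ratio of low genes. *Tsix*-stop reads were tested with edgeR's quasi-likelihood test (4.0.16) at 20 or more SNP reads per library, with DESeq2 (1.42.0) as an alternative. Whole reads were recovered from TPM steps for 72.3% of genes, and each script was tested on simulated data. Limits for a count of 0 are 3 reads of the total. An exact sign-flip test on 4 libraries cannot go below p = 0.125. Genes were placed on GRCm38 (GENCODE annotation) by symbol. Near-identical copies were sought as 31-base words shared with annotated transcripts on other chromosomes, so copies on the same chromosome were not counted. Other settings of the pseudocount, filters, scaling, replicate block and left-out libraries were tried.

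The genes named are the 10 protein-coding genes of at least 10 TPM with the largest ratio on each side outside the imprinted lists, up to 4 called members of each gene list, monoallelic imprinted genes, *Nnt* and the 3 largest changes each way between days and genotypes. Other genes named, the runs of genes, the genes chosen for few copies and balanced neighbours, the genes on opposite sides in *Tsix*-stop and the other imprinted genes given with values were chosen after values were seen. A gene that the rule names is not reported here. The members and lists were chosen with earlier results of these data known. Replicate numbers did not pair the libraries, with correlations of same-numbered deviations from -0.0736 to 0.0423.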

Additional observations from a re-analysis of the deposited data

Results flagged for a closer look

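The allelic ratio differed between genotypes by the limma test of the difference for 637 genes, 226 of them X-linked. The largest called differences in log2 ratio, KO minus wt, were 9.66 for *S100g*, 7.74 for *Eif1ax* and 7.68 for *Ndufb11*, all on X, and -8.19 for *AF357399*, -5.53 for *H19* and -2.18 for *Nudt12* on autosomes. Between days 2 genes were called in E8 wt, *AF357399* with a log2 difference, D15 minus D7, of 12.17 and *Rpl36al* with -1.37. *AF357399* is a small nucleolar RNA, and its row in these libraries of polyadenylated RNA is not a measure of the mature RNA. *Rpl36al* had 0, 0, 1 and 2 *cast* reads in the 4 libraries. The visceral endoderm markers differ between KO and wt as well (249 to 1178 TPM against 7.36 to 14.6 TPM), and their part in these differences was not tested.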

How the results depend on the processing

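Over 16 settings of the pseudocount, filters, whole-genome or whole-chromosome scaling, trend, block and left-out libraries for E8 wt, the number of called genes was 1805 to 2660, of BL6-biased genes 503 to 774, of *cast*-biased genes 1071 to 1526 and of monoallelic genes 103 to 136 and 197 to 279. With 1 library left out, these were 2195 to 2209, 621 to 639, 1318 to 1335, 115 to 119 and 249 to 259. The replicate block gave 2178 called genes in E8 wt and 636 for KO against wt, and the numbers do not pair the libraries. The count between days, 2 genes, was 4 with a pseudocount of 1 TPM, 5 with the replicate block and 1 to 9 with 1 library left out: 1 without D7 replicate 1, 4 without D15 replicate 1 and 9 without D15 replicate 2. *Rpl36al* was not called with a pseudocount of 1 TPM or without D7 replicate 1 or 2 (limma adjusted p 0.31 and 0.56). *Snrpn* was under 2-fold without D15 replicate 1 (log2 0.98), as was *Pecam1* without D15 replicate 2. The *Tsix*-stop count was 1383 to 1719.

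Chosen after seeing the data, KO against wt without chromosomes 12, 19, X and distal 5 had 43 called genes, 17 with a higher and 26 with a lower BL6 share. Scaling by the worth of 1 read kept 552 of 608 BL6-biased and 1281 of 1281 *cast*-biased genes, and scaling each gene to its 20 neighbours kept 551 of 608 BL6-biased and 864 of 1252 *cast*-biased genes, with 674 and 923 such genes in all. No named value was reversed, and 10 lost their call, over all alternatives run. Genes with few SNP reads were not measured, and a monoallelic value rests on the reads of the SNPs covered.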
